A study of Homo sapiens with 8 samples.

Results

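The genes of collagen chains, laminin chains and integrin subunits, which encode the main fibrous and sheet-forming proteins outside the cell and the receptors that hold cells to them, were described in human prostate cancer cells with and without activated Notch1. Members were the genes whose symbol in the array annotation named a numbered collagen (COL), laminin (LAM) or integrin (ITG) chain, read from probe sets with 1 gene symbol. This gave 63 of 8226 genes, namely 29 collagens, 9 laminins and 25 integrins, on 96 of 12558 probe sets, and a gene with several probe sets was represented by the one with the highest mean over all arrays. The integrin rule also took in ITGBL1, an integrin beta-like secreted protein that is no receptor subunit.

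Expression was measured on Affymetrix U95Av2 arrays in 4 groups, LNCaP Notch1, LNCaP GFP, PC3 Notch1 and PC3 GFP, with 2 arrays each. LNCaP is an androgen-responsive line from a lymph node metastasis and PC3 an androgen-independent line from a bone metastasis. Notch1 cells expressed an activated form of the receptor, and control cells expressed the green fluorescent protein (GFP). The vector and the time after gene transfer are not given for these arrays in the sources used here, and the methods state that a pair of chips was made per sample, so p-values measure the spread between arrays, which may be technical. All values below are levels on the log2 scale or differences of such levels, and a gene was called higher or lower at an adjusted p under 0.05 (limma, Benjamini-Hochberg over all probe sets).

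Collagens wind as trimers of alpha chains. Types I, III and V build fibrils, type IV forms the network of basement membranes, type VI makes beaded filaments, and type VII anchors epithelium to the tissue below. Laminins are trimers of an alpha, a beta and a gamma chain that carry the basement membrane at the cell side. Integrins are heterodimers of an alpha and a beta subunit, in which beta1 pairs with many alpha subunits for collagen (alpha1, alpha2, alpha10), laminin (alpha3, alpha6, alpha7) or fibronectin (alpha5), and alpha6 with beta4 forms the hemidesmosome receptor for laminin. In the prostate, basal cells rest on the laminin-rich basement membrane through such hemidesmosomes, which are commonly lost in carcinoma. Notch acts when its intracellular part binds the DNA-binding protein CSL at target genes.

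The pathway was active by the reading of HES1, a canonical Notch target. HES1 stood at 11.22 and 11.23 in LNCaP Notch1 and at 8.41 and 8.47 in LNCaP GFP, and at 10.51 and 10.61 in PC3 Notch1 and 7.92 and 8.08 in PC3 GFP. All 5 measured LNCaP markers lay at log2 5 or above on every LNCaP array, against 2 to 3 on the PC3 arrays, and all 8 PC3 markers did so on every PC3 array, against 3 to 4 on the LNCaP arrays. The LNCaP markers averaged 8.24 and 8.10 in LNCaP Notch1 and 9.24 and 9.19 in LNCaP GFP, and the PC3 markers 5.79 and 5.83, and 5.30 and 5.36. Of the PC3 markers, ANXA1 moved most in LNCaP, with averages of 7.97 in LNCaP Notch1 and 4.73 in LNCaP GFP. AXL, also of that list, averaged 8.10 to 8.38 in the 4 groups. In PC3 Notch1 and PC3 GFP the LNCaP markers averaged 5.70 and 5.66, and 6.04 and 5.83, and the PC3 markers 10.59 and 10.63, and 10.15 and 10.29. Array medians were 6.28 to 6.36 in LNCaP and 5.95 to 6.01 in PC3, so differences between the lines move with the scaling of the arrays. Of the 63 members, 31 lay at log2 5 or above on all 8 arrays and 17 under it on all 8, a range close to the array background.

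Promoters of some of the members called below are shown from the RefSeq tables of build GRCh38.p14, each from 250 bases before to 50 after the start. COL4A2 among them was called in comparisons between the lines, and not with Notch1 within either line. The first window serves COL4A2 and also holds the start of COL4A1, which runs the opposite way (chr13:110307034-110307333, plus strand). The second is that of COL4A5, which faces COL4A6 (chrX:108439588-108439887, plus strand), and the third that of LAMC1 (chr1:183023170-183023469, plus strand). The last ones belong to ITGA1 (chr5:52787666-52787965, plus strand) and ITGA2 (chr5:52989102-52989401, plus strand), neighbours on the same strand. Capitals mark the letters CCAAT and GGGCGG, a motif of the general factor NF-Y and one of the SP family, on either strand (ATTGG and CCGCCC in reverse), and the marked stretches do not overlap each other.
COL4A2: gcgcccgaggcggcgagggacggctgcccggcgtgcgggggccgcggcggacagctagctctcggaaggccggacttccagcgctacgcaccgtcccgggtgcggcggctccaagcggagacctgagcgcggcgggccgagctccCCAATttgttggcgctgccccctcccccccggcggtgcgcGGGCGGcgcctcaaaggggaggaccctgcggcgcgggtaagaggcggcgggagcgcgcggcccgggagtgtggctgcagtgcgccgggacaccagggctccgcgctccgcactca
COL4A5: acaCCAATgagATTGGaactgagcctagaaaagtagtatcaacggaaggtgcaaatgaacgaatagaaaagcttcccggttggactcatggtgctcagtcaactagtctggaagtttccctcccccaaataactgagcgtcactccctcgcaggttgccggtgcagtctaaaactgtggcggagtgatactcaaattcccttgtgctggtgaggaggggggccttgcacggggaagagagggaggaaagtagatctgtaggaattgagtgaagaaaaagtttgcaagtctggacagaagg
LAMC1: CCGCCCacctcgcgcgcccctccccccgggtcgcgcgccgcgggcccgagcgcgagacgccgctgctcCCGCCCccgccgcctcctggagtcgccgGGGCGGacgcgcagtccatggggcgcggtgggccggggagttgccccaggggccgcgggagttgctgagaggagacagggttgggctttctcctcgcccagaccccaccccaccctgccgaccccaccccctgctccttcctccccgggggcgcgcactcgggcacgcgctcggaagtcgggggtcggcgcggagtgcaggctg
ITGA1: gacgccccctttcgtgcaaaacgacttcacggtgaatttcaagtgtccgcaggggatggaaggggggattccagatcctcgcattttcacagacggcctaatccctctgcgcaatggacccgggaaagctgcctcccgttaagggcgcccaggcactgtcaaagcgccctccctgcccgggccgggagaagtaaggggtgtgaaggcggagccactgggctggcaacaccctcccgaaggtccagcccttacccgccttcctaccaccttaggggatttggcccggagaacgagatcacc
ITGA2: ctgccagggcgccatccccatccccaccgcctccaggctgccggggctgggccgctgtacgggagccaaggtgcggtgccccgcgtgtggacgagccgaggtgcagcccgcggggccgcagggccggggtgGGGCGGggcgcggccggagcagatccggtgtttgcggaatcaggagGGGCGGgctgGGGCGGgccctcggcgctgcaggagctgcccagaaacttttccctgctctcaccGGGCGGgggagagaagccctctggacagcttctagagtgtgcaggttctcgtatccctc

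Windows were found for 44 of the 63 members, 61 windows in all, with none for COL5A2 or ITGB4. GGGCGG was in 34 of them (55.7%, against 45% of 35116 windows of all genes) and CCAAT in 16 (26.2%, against 34.6%). LAMC1 held 3 and ITGA2 4 GGGCGG matches, COL4A2 held 1 of each motif, COL4A5 held 2 CCAAT matches 3 letters apart, and ITGA1 held neither. The core of the CSL motif, TGGGAA, which reads as TTCCCA on the other strand, was in 5 member windows (8.2%, against 24% of all windows), those of COL7A1, COL13A1, COL18A1, COL21A1 and LAMB2, and in none of the 5 windows printed. A match is a description of letters and not a binding site. Genes share windows and base composition, with a median GC content of 60.7% in member windows and 58.7% in all windows.

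In LNCaP cells, activated Notch1 raised the integrin alpha subunits ITGA1, ITGA2 and ITGA7 and the laminin chain LAMB3, and lowered the laminin chain LAMC1 and the collagens COL4A5, COL5A2, COL6A1 and COL9A3. These 4 members higher and 5 lower were 14.3% of 63, against 18.6% of all 8226 genes (8.47% higher and 10.2% lower), so the share called was close to that of genes at large. In such bulk samples, fewer cells with a transcript and less of it per cell cannot be told apart. The median change of the members was 0.06 and that of all genes 0.04. By family, the counts were 0 higher and 4 lower of 29 collagens, 1 and 1 of 9 laminins, and 3 and 0 of 25 integrins. At an unadjusted p under 0.05 in limma, 0 collagens were higher and 6 lower, and 4 integrins were higher and 3 lower, where 1235 of 8226 genes were higher and 1277 lower.

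ITGA1 and ITGA2 were the integrins with the largest rise. ITGA1, whose protein pairs with beta1 as a receptor for collagen IV and other collagens, stood at 6.44 and 6.59 in LNCaP Notch1 and at 5.31 and 5.41 in LNCaP GFP. Both Notch1 arrays lay above both GFP arrays, as they did or the reverse for 59% of all genes in this line. ITGA1 rose 2.22-fold (1.15, SE 0.17, adjusted p = 0.000904), and its other probe set gave 1.01 (adjusted p = 0.00183). ITGA2, the alpha subunit of the main collagen I receptor of epithelium, stood at 5.77 and 6.23 in LNCaP Notch1 and at 4.77 and 5.12 in LNCaP GFP, with no overlap. It rose 2.07-fold (1.05, SE 0.17, adjusted p = 0.00191), with 0.76 at its other probe set (adjusted p = 0.00916).

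The third integrin that rose, ITGA7, pairs with beta1 as a laminin receptor, best known from muscle. Its levels were 7.52 and 7.36 in LNCaP Notch1 and 6.78 and 7.01 in LNCaP GFP, again without overlap, a rise of 0.55 (SE 0.12, adjusted p = 0.0118). Removing LNCaP GFP replicate 1 gave 0.43 for ITGA7 (adjusted p = 0.109) and removing LNCaP Notch1 replicate 1 gave 0.46 (adjusted p = 0.0909), both short of a call. The shared partner of these subunits, ITGB1, had 10.75 and 10.70 in LNCaP Notch1 and 10.64 and 10.95 in LNCaP GFP, so the groups overlapped and the change was -0.07 (SE 0.20, adjusted p = 0.877). Other integrins of the named set had 0.35 for ITGA5, the fibronectin receptor subunit (adjusted p = 0.177), and 0.36 for ITGAV, which binds vitronectin and latent TGF-beta (adjusted p = 0.0649). ITGA3, ITGA6 and ITGB4 of that set had 0.02, -0.35 and 0.26, none of them called. ITGAV passed with the replicate number as a block (adjusted p = 0.0446) and after quantile normalization (0.40, adjusted p = 0.0361). Its other probe sets, both dim, gave 0.01 (adjusted p = 0.969) and 0.19 (adjusted p = 0.535).

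Among laminins, LAMC1 encodes the gamma1 chain found in most laminin trimers. It stood at 7.12 and 7.20 in LNCaP Notch1 and at 8.16 and 8.46 in LNCaP GFP. Both Notch1 arrays were lower by about a full log2 unit, and the fall was 2.21-fold (-1.15, SE 0.15, adjusted p = 0.000374). LAMB3, a chain of the laminin of hemidesmosomes, stood at 6.11 and 6.05 in LNCaP Notch1 and at 5.79 and 5.51 in LNCaP GFP, a rise of 0.44 (SE 0.12, adjusted p = 0.0345). This LAMB3 call lay near the threshold. Removal of LNCaP GFP replicate 2 (0.30, adjusted p = 0.298), of LNCaP Notch1 replicate 1 (0.40, adjusted p = 0.154) or 2 (0.47, adjusted p = 0.104), or of either PC3 Notch1 array (0.44, adjusted p = 0.0602) ended it, as did 3 other settings (adjusted p of 0.0549 to 0.064). The beta chains that join gamma1 had values of 0.40 for LAMB1 (adjusted p = 0.154, and 0.0193 with the replicate block), at levels of 1.85 and 2.11 in LNCaP Notch1 and 1.45 and 1.73 in LNCaP GFP, and of -0.27 for LAMB2 (adjusted p = 0.237).

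The collagens that fell in LNCaP came from 4 types. COL4A5, a chain of the basement membrane network best known from the kidney, stood at 5.13 and 5.56 in LNCaP Notch1 and at 6.79 and 7.04 in LNCaP GFP, a fall of 2.97-fold (-1.57, SE 0.27, adjusted p = 0.00226). Its head-to-head partner COL4A6 had 3.90 and 3.98 in LNCaP Notch1 and 4.22 and 4.20 in LNCaP GFP (-0.27, adjusted p = 0.213), and COL4A3, which joins COL4A5 and COL4A4 in a trimer, had 5.36 and 4.76 in LNCaP Notch1 and 5.87 and 5.10 in LNCaP GFP (-0.42, adjusted p = 0.375, and 0.0273 with the replicate block). The other COL4A3 probe sets, both dim, gave 0.19 (adjusted p = 0.352) and 0.01 (adjusted p = 0.978). COL4A5 was thus the type IV chain called. COL5A2, a chain of the fibrillar collagen that sets fibril width, stood at 8.93 and 8.99 in LNCaP Notch1 and at 9.61 in both LNCaP GFP arrays, a fall of 1.57-fold (-0.65, SE 0.13, adjusted p = 0.00691), with adjusted p = 0.0539 without LNCaP Notch1 replicate 1 (-0.62).

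COL6A1, a chain of the filament collagen around cells, and COL9A3, a chain of a collagen that sits on cartilage fibrils, fell less securely. COL6A1 stood at 8.99 and 8.93 in LNCaP Notch1 and at 9.37 and 9.44 in LNCaP GFP (-0.45, SE 0.12, adjusted p = 0.0245), but other COL6A1 probe sets gave -0.05 and 0.19, and the mean of its probe sets gave -0.10 (adjusted p = 0.569). Leaving out LNCaP GFP replicate 1 or 2 gave -0.48 and -0.41 for COL6A1 (adjusted p = 0.077 and 0.15), and leaving out LNCaP Notch1 replicate 1 or 2 gave -0.48 and -0.41 (adjusted p = 0.0764 and 0.125). COL9A3 stood at 6.24 and 5.63 in LNCaP Notch1 and at 6.67 and 6.52 in LNCaP GFP (-0.66, SE 0.18, adjusted p = 0.0291). The COL9A3 call was lost when LNCaP Notch1 replicate 2 (-0.36), LNCaP GFP replicate 1 (-0.58) or LNCaP GFP replicate 2 (-0.74) was left out. It was also lost with the floor at log2 5 (adjusted p = 0.152), which changed none of its LNCaP levels. COL16A1, a collagen that links fibrils to other matrix, had -0.14 at its main probe set (adjusted p = 0.722) and -1.77 at a second, dim one of a kind that related transcripts can share (adjusted p = 4.46e-06), so its probe sets disagreed, and it is named here after its values were seen.

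**Figure D1:**
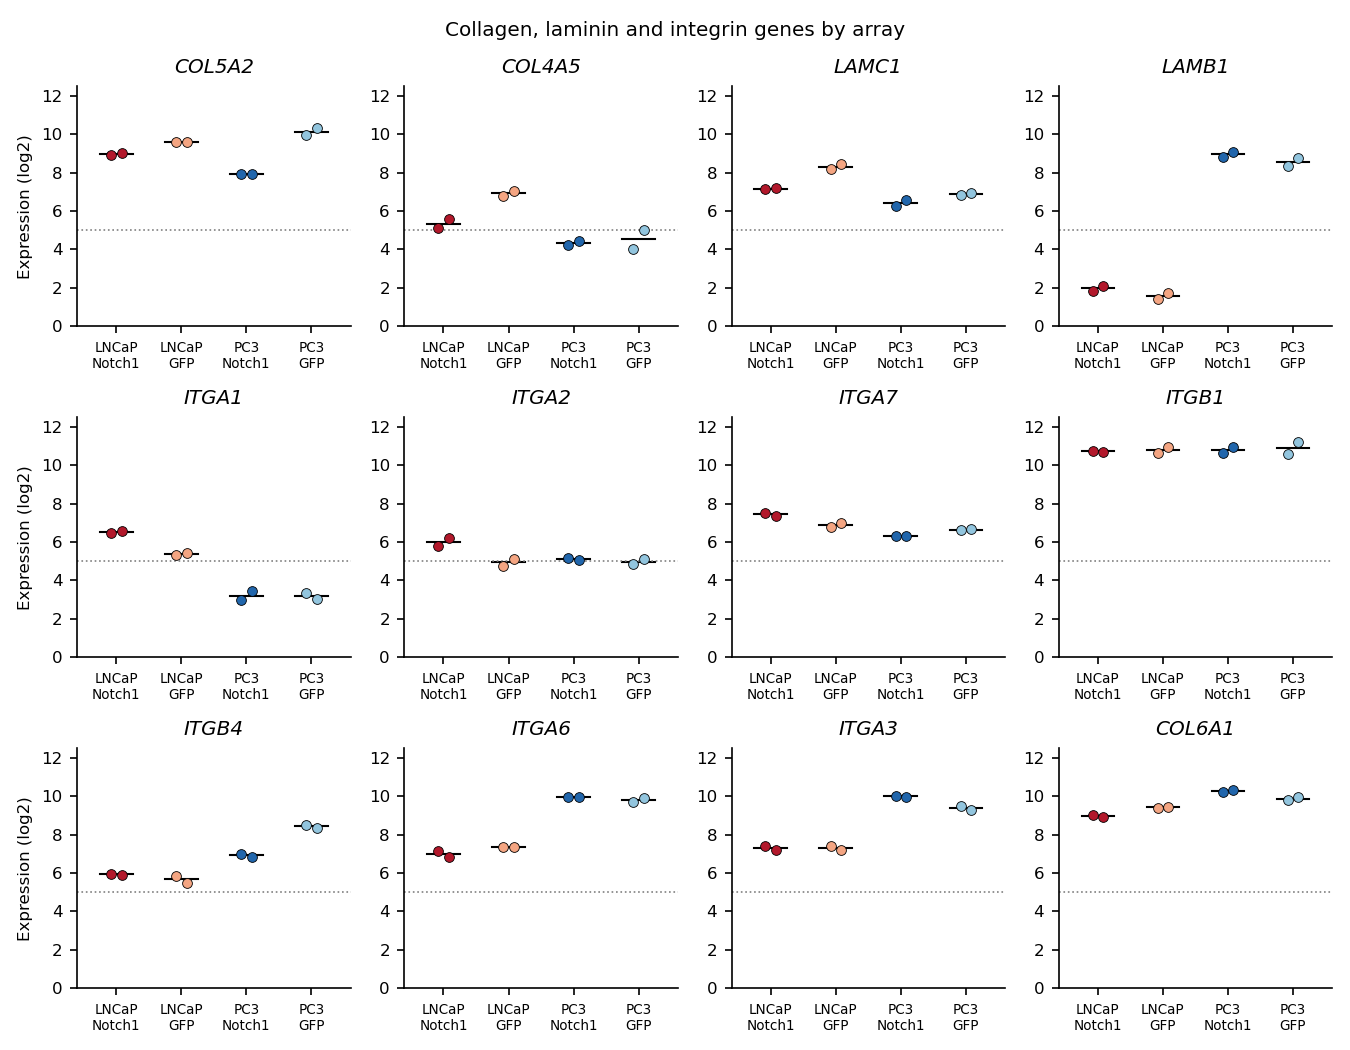
Log2 expression (y axis) of 12 members in the 4 groups (x axis), where each point is an array, with short lines for group means (n = 2) and a dotted line at log2 5. ITGA1 and ITGA2 lay higher and LAMC1 and COL4A5 lower in LNCaP Notch1 than in LNCaP GFP, COL5A2 and ITGB4 lay lower in PC3 Notch1 than in PC3 GFP, and ITGB1 overlapped between Notch1 and GFP in both lines.

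In PC3 cells, activated Notch1 lowered the collagen COL5A2 and the integrin subunits ITGB4 and ITGB2 and raised the integrin subunit ITGA3. These 1 higher and 3 lower members were 6.35% of 63, against 6.58% of all genes (4.36% higher and 2.21% lower). After median centring 1 member was higher and 2 lower, where 427 and 142 of 8226 genes were. After quantile normalization these were 0 and 2 members, and 295 and 123 genes. The median change was -0.13 over the members and -0.07 over all genes. With the replicate block, 4 were higher and 5 lower (14.3% of 63, against 12.7% of all genes with the block), the added ones being COL4A1 (0.44, adjusted p = 0.0413), COL6A1 (0.39, adjusted p = 0.0436) and LAMB1 (0.39, adjusted p = 0.0378) among those higher, and COL4A6 (-0.44, adjusted p = 0.0341) and LAMC1 (-0.45, adjusted p = 0.0306) among those lower. Without the block these had adjusted p of 0.0831, 0.0839, 0.19, 0.0798 and 0.0969.

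COL5A2 changed most. It stood at 7.93 on both PC3 Notch1 arrays and at 9.94 and 10.30 in PC3 GFP. The groups did not overlap, which held for 57.1% of all genes in PC3, and the fall was 4.57-fold (-2.19, SE 0.13, adjusted p = 4.28e-06). The fall held its call under all 15 alternatives, with -2.37 to -2.02. COL5A2 was called in both lines, and the other 11 members called with Notch1 were called in 1 line each. COL3A1, a fibrillar collagen whose gene lies next to COL5A2, had 1.37 and 1.41 in PC3 Notch1 and 1.83 and 1.69 in PC3 GFP, far under log2 5 (-0.37, adjusted p = 0.102).

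ITGB4, the beta4 subunit of the hemidesmosome receptor, stood at 7.0 and 6.84 in PC3 Notch1 and at 8.51 and 8.36 in PC3 GFP. The fall was 2.85-fold (-1.51, SE 0.14, adjusted p = 0.000127), held under all 15 alternatives (-1.59 to -0.85, the last with the mean of its probe sets), and was -0.20 at the other ITGB4 probe set (adjusted p = 0.349). Its partner ITGA6 had 9.96 and 9.95 in PC3 Notch1 and 9.69 and 9.90 in PC3 GFP (0.16, adjusted p = 0.486). Of the 2 subunits of this receptor, ITGB4 was called lower and ITGA6 was not called. ITGA3, which pairs with beta1 as a receptor for the laminins of epithelium, stood at 10.01 and 9.96 in PC3 Notch1 and at 9.48 and 9.26 in PC3 GFP, a rise of 1.53-fold (0.62, SE 0.13, adjusted p = 0.0233), with 1.00 at its other probe set (adjusted p = 0.00059).

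Removal of PC3 GFP replicate 2 (0.51) or of PC3 Notch1 replicate 1 (0.59) or 2 (0.64) ended the ITGA3 call. It was also not made after quantile normalization (0.49, adjusted p = 0.0637) or with the log2 5 floor (0.62, adjusted p = 0.098). The floor changed none of the ITGA3 levels, all above log2 5. ITGB2, the beta subunit of leukocyte integrins, stood at 3.47 and 3.70 in PC3 Notch1 and at 4.24 and 3.98 in PC3 GFP (-0.52, SE 0.14, adjusted p = 0.0499). These ITGB2 levels are near background, and the call was lost under 11 of 14 alternatives. Without PC3 GFP replicate 1, PC3 Notch1 replicate 1 or PC3 Notch1 replicate 2 the ITGB2 values were -0.39, -0.41 and -0.64 (adjusted p of 0.11 to 0.295), and without any 1 LNCaP array -0.52 (adjusted p of 0.0611 to 0.076). The leukocyte marker list averaged 5.02 and 5.20 in PC3 Notch1 and 5.35 and 5.19 in PC3 GFP, with 7 of 11 measured markers at log2 5 or above on each array, and its part in the ITGB2 value was not tested. No laminin was called in PC3 by limma, where 1 of 9 was higher and 1 lower at an unadjusted p under 0.05, as were 968 and 1124 of 8226 genes.

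**Figure D2:**
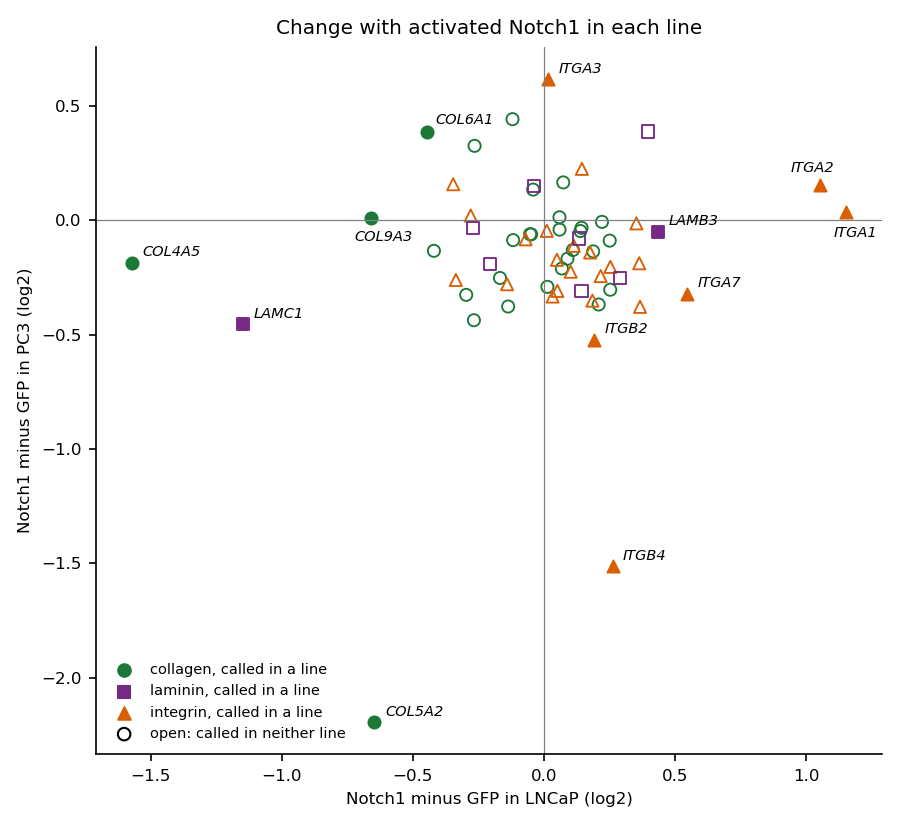
Change with activated Notch1 of each of the 63 members in LNCaP (x axis, log2) and in PC3 (y axis, log2), with the shape and colour giving the family and filled symbols the 12 members called in a line. COL5A2 lay below 0 in both lines (-0.65 in LNCaP and -2.19 in PC3), whereas ITGA1 and ITGA2 (1.15 and 1.05 in LNCaP) had 0.04 and 0.16 in PC3, and ITGB4 (-1.51 in PC3) had 0.26 in LNCaP.

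The difference of the Notch1 effects, LNCaP minus PC3, was called for 7 members higher and 4 lower, 17.5% of 63 against 15.2% of all genes (6.86% higher and 8.34% lower). After median centring 4 members were higher and 6 lower, where 384 and 881 of 8226 genes were. After quantile normalization these were 5 and 5 members, and 489 and 685 genes. ITGB4 had the largest difference (1.77, SE 0.20, adjusted p = 0.000348), with values of 0.26 in LNCaP and -1.51 in PC3, but the other ITGB4 probe set gave a difference of 0.21 (adjusted p = 0.427). COL5A2 followed (1.55, SE 0.19, adjusted p = 0.00052) and fell less in LNCaP. ITGA1 (1.12, adjusted p = 0.0119), ITGA7 (0.87, adjusted p = 0.00886) and COL6A1 (-0.83, adjusted p = 0.00829) also differed, the ITGA1 call being lost when LNCaP Notch1 replicate 2 was left out (1.04, adjusted p = 0.0585). The difference was also called for ITGA2 (0.90), ITGB2 (0.71) and COL3A1 (0.58) among those higher and for COL4A5 (-1.38), LAMC1 (-0.69) and COL4A2 (-0.59) among those lower, with adjusted p of 0.0342 to 0.0499, and each of these calls was lost when certain single arrays were left out. COL6A1 had -0.45 in LNCaP and 0.39 in PC3, and its difference was -0.36 with the mean of its probe sets (adjusted p = 0.123).

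With GFP alone, the lines differed in most members. LNCaP GFP was higher than PC3 GFP for 21 members and lower for 18, 61.9% against 59.6% of all genes (39.8% higher and 19.8% lower). After median centring 9 members were higher and 24 lower, where 2193 and 2629 of 8226 genes were. After quantile normalization these were again 9 and 24 members, and 2348 and 2393 genes. All genes had a median difference of 0.20, which became -0.08 with centring, and the members had 0.11. Small positive differences of dim members therefore depend on the scaling, and the called members described next kept their direction and their call under both scalings.

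Basement membrane chains differed in both directions, with LAMB1, COL4A1, COL4A2, LAMA5 and LAMA4 among those lower in LNCaP and COL4A5, COL4A6 and LAMC1 among those higher. LAMB1, the beta1 chain of most laminins, had 1.45 and 1.73 in LNCaP GFP and 8.36 and 8.76 in PC3 GFP (-6.97, SE 0.17, adjusted p = 1.34e-10, and -3.56 when levels below log2 5 were set to 5). The facing pair COL4A1 and COL4A2, the chains of the ubiquitous collagen IV trimer, were lower in LNCaP together. COL4A1 had 3.20 and 2.90 in LNCaP GFP and 6.53 and 6.60 in PC3 GFP (-3.52, SE 0.13, adjusted p = 3.73e-09, and -1.56 when levels below log2 5 were set to 5). COL4A2 had 6.11 and 6.08 in LNCaP GFP and 7.92 and 7.76 in PC3 GFP (-1.75, SE 0.12, adjusted p = 2.66e-07). LAMA5, the alpha chain of the main epithelial and endothelial laminins, was lower by less (-1.10, adjusted p = 0.000172), and LAMA4, a laminin chain of vessels and muscle, had -2.84 (adjusted p = 1.78e-08) at levels under log2 5 in both lines, which left no difference when levels below log2 5 were set to 5 (0.00).

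Among the collagens outside basement membranes, COL1A2, a chain of the main collagen of bone and skin, had 4.04 and 3.76 in LNCaP GFP and 7.65 and 7.97 in PC3 GFP (-3.91, SE 0.17, adjusted p = 1.15e-08). Its 3 other probe sets gave -2.10, -4.69 and 0.28, the last at a very dim one. COL1A1, the other chain of the same trimer, had 8.07 and 8.01 in LNCaP GFP and 8.30 and 8.32 in PC3 GFP (-0.27, adjusted p = 0.103). It was called lower after median centring (-0.55, adjusted p = 0.00505) and quantile normalization (-0.43, adjusted p = 0.0257). The other COL1A1 probe set, at a mean level of 7.63, gave 0.03 (adjusted p = 0.830) as deposited. COL13A1, a transmembrane collagen of cell contacts, had 5.56 and 5.40 in LNCaP GFP and 8.39 and 8.20 in PC3 GFP (-2.82, adjusted p = 8.79e-09, and -4.05 at its other probe set).

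Of the integrin subunits that bind laminin, ITGA3, ITGA6 and ITGB4 were lower in LNCaP, while ITGA7 had 0.26 (adjusted p = 0.0979). ITGA6 had 7.33 and 7.35 in LNCaP GFP and 9.69 and 9.90 in PC3 GFP (-2.46, SE 0.14, adjusted p = 6.92e-08). ITGB4 had 5.85 and 5.47 in LNCaP GFP and 8.51 and 8.36 in PC3 GFP (-2.77, SE 0.14, adjusted p = 4.06e-08), and ITGA3 7.39 and 7.19 in LNCaP GFP and 9.48 and 9.26 in PC3 GFP (-2.08, adjusted p = 2.09e-07). Both subunits of the hemidesmosome receptor were thus lower in LNCaP. Other probe sets gave -4.15, -3.76 and -0.09 for ITGA6, -0.41 for ITGB4 and -3.06 for ITGA3.

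Higher in LNCaP GFP were COL4A5 (2.39, SE 0.27, adjusted p = 1.79e-05), ITGA1 (2.19, SE 0.17, adjusted p = 9.6e-07), COL9A3 (1.66, SE 0.18, adjusted p = 1.45e-05), LAMC1 (1.44, SE 0.15, adjusted p = 8.55e-06), COL7A1 (1.41, SE 0.12, adjusted p = 1.58e-06) and ITGB5 (1.00, SE 0.13, adjusted p = 5.63e-05). COL7A1 is the anchoring fibril collagen and ITGB5 pairs with alphaV as a vitronectin receptor. ITGA1 had 5.31 and 5.41 in LNCaP GFP and 3.32 and 3.02 in PC3 GFP, and its difference was 0.36 when levels below log2 5 were set to 5. COL7A1 had 8.05 on both LNCaP GFP arrays and 6.68 and 6.59 in PC3 GFP, and ITGB5 had 8.60 and 8.63 in LNCaP GFP and 7.51 and 7.71 in PC3 GFP. In each of these the lines did not overlap, as for 79.2% of all genes. ITGB1 overlapped, with 10.64 and 10.95 in LNCaP GFP and 10.57 and 11.17 in PC3 GFP (-0.08, SE 0.20, adjusted p = 0.762). The other ITGB1 probe set, a dim one with a mean level of 4.01, was called higher in LNCaP GFP (0.51, adjusted p = 0.0103).

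**Figure D3:**
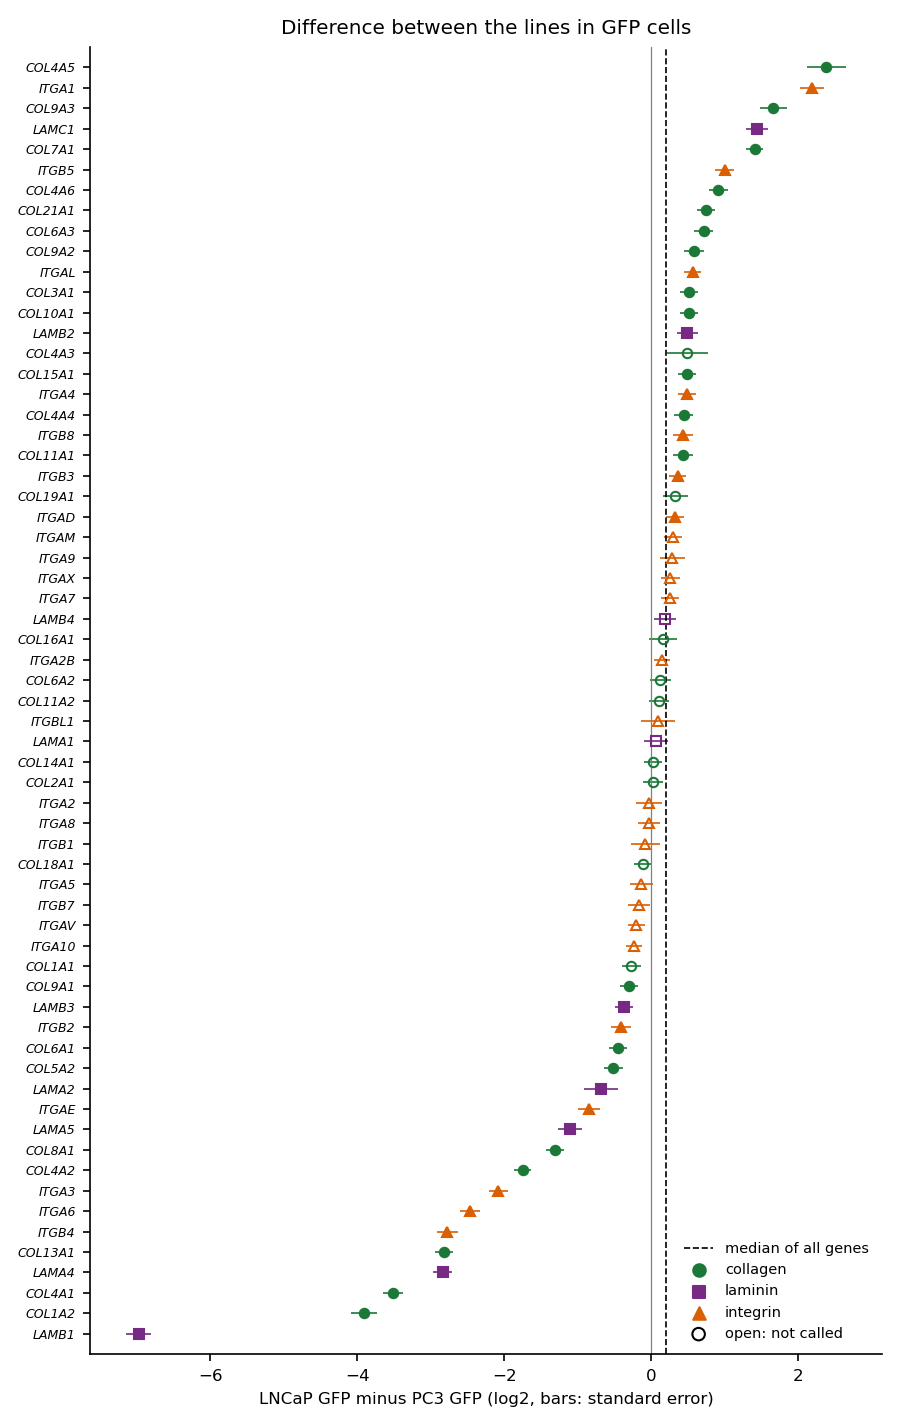
Difference of LNCaP GFP minus PC3 GFP (x axis, log2, bars are the standard error) for the 63 members, sorted, with the family by colour and shape, filled symbols called and a dashed line at the median of all genes (0.20). LAMB1 (-6.97), COL1A2 (-3.91) and COL4A1 (-3.52) lay at the low end and COL4A5 (2.39) and ITGA1 (2.19) at the high end.

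Under activated Notch1, LNCaP was higher than PC3 for 34 members and lower for 13, 74.6% against 71.4% of all genes (51.3% higher and 20.1% lower). With median centring 17 members were higher and 18 lower, where 2162 and 2569 of 8226 genes were. With quantile normalization these were 13 and 16 members, and 2562 and 2145 genes. The median of all genes of 0.35 became -0.02 with centring. ITGA1 had 6.44 and 6.59 in LNCaP Notch1 and 2.96 and 3.45 in PC3 Notch1, without overlap, as for 88.1% of all genes (3.31, adjusted p = 3.94e-08). COL5A2, lower in LNCaP with GFP (-0.51, adjusted p = 0.00658, and -0.34 with adjusted p = 0.0564 without PC3 GFP replicate 2), was higher in LNCaP with Notch1 (1.03, adjusted p = 5.29e-05). For ITGB4 the difference was -1.0 (adjusted p = 0.000124), and -0.19 at its other probe set (adjusted p = 0.189). The Notch1 and GFP comparisons of a line share arrays with these comparisons.

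The type IV collagen genes lie in 3 pairs whose starts face each other, COL4A1 with COL4A2 on chromosome 13, COL4A3 with COL4A4 on chromosome 2 and COL4A5 with COL4A6 on chromosome X. In LNCaP minus PC3 with GFP, partners had the same sign in each pair, at -3.52 and -1.75, at 0.50 and 0.45, and at 2.39 and 0.91. Of all 8226 genes, 5249 were positive and 2977 negative in this comparison, so a shared sign is common. Neighbouring members that do not face each other went both ways, as ITGAM and ITGAX (0.30 and 0.26) and COL3A1 and COL5A2 (0.52 and -0.51). Shared control of facing genes was not tested. COL4A4 stood between 0.77 and 1.59 on all arrays, far under log2 5. With Notch1 in LNCaP, COL4A5 fell by 1.57 while COL4A6 had -0.27, and in PC3 COL4A1 and COL4A2 had 0.44 and 0.33 with no call (adjusted p = 0.0831 and 0.12). The COL4A3 difference between the lines with GFP was not called, but it was called with the replicate block (0.50, adjusted p = 0.00394). Without LNCaP GFP replicate 2 it was 0.88. The other COL4A3 probe sets, both dim, gave 0.39 (adjusted p = 0.0168) and 0.38 (adjusted p = 0.158). Once levels below log2 5 were set to 5, the differences of COL4A4 and COL4A6 between the lines were not called.

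**Figure D4:**
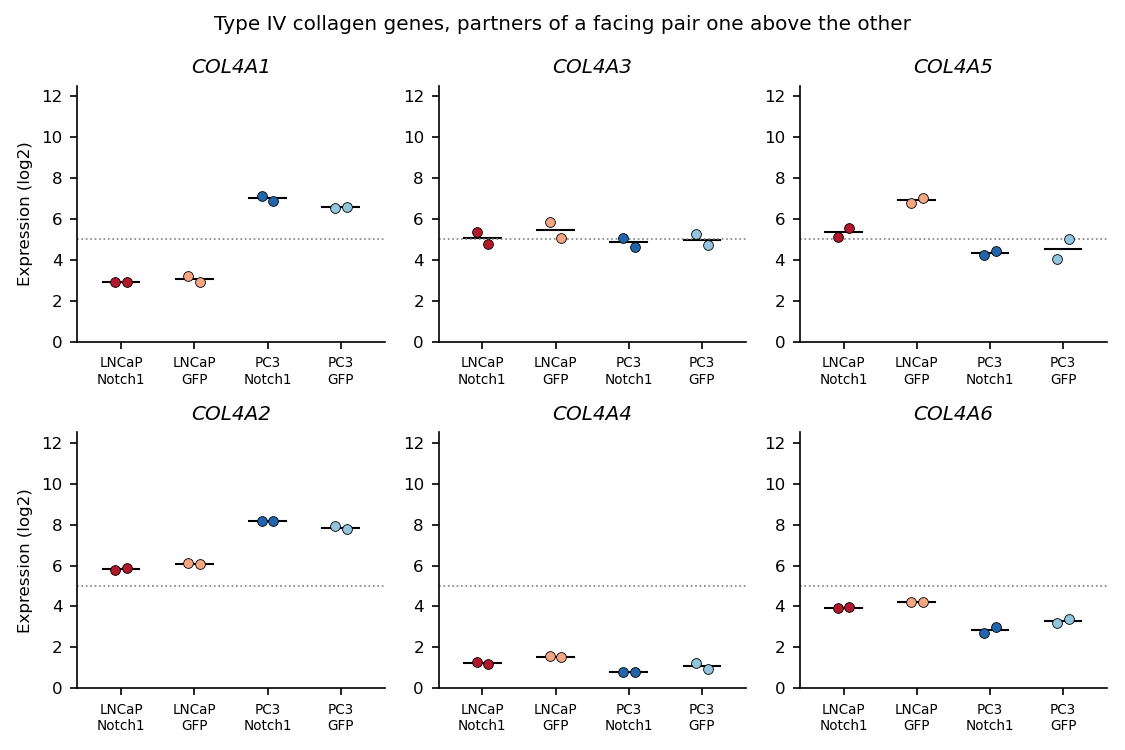
Log2 expression (y axis) of the 6 type IV collagen genes in the 4 groups (x axis), the partners of a facing pair one above the other, where each point is an array, with short lines for group means (n = 2) and a dotted line at log2 5. COL4A1 and COL4A2 lay lower in LNCaP than in PC3, COL4A5 lay lower in LNCaP Notch1 than in LNCaP GFP, and COL4A4 lay under log2 2 throughout.

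Genes that act on collagen after translation were described from a list of 19, of which 18 were measured. In LNCaP 6 were higher and 0 lower with Notch1 (7 and 4 at an unadjusted p under 0.05 by limma), and in PC3 3 were higher and 1 lower. These were 33.3% of the list in LNCaP and 22.2% in PC3, against 18.6% and 6.58% of all genes. PLOD2, which hydroxylates collagen lysines for cross-links, stood at 4.59 and 4.95 in LNCaP Notch1 and at 2.77 and 2.97 in LNCaP GFP (1.90, adjusted p = 0.000166), and P4HA2, a collagen prolyl hydroxylase subunit, at 8.47 and 8.37 in LNCaP Notch1 and at 6.69 and 6.94 in LNCaP GFP (1.61, adjusted p = 2.18e-05). PLOD2 lay under log2 5 on all LNCaP arrays. SPARC, a collagen-binding matrix protein, rose in both lines, by 1.32 in LNCaP (adjusted p = 0.000148) and by 1.56 in PC3 (adjusted p = 0.000126), and LOX, a cross-linking oxidase, had 1.06 in LNCaP (adjusted p = 0.00117) at levels under log2 5.

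Of 19 measured genes of other matrix ligands (21 listed), 2 were higher and 0 lower in each line (10.5%, against 18.6% of all genes in LNCaP and 6.58% in PC3), and at an unadjusted p under 0.05 by limma 4 were higher and 0 lower in LNCaP and 6 higher and 1 lower in PC3. FN1, fibronectin, the ligand of alpha5beta1, stood at 12.40 and 12.38 in LNCaP Notch1 and at 10.53 and 10.54 in LNCaP GFP (1.85, adjusted p = 2.05e-06), and at 5.76 and 5.73 in PC3 Notch1 and 5.73 and 5.68 in PC3 GFP (0.04, adjusted p = 0.835). TNC, tenascin-C, rose by 1.32 in PC3 (adjusted p = 0.0105), and FBN1, fibrillin-1, by 0.85 in LNCaP (adjusted p = 0.000455) and 0.57 in PC3 (adjusted p = 0.0145). Of 22 measured adaptors and focal adhesion genes (29 listed), 3 were higher and 3 lower in LNCaP and 2 were higher and 0 lower in PC3 (2 and 3 at an unadjusted p under 0.05 by limma). These were 27.3% in LNCaP and 9.09% in PC3, against 18.6% and 6.58% of all genes. FERMT2, kindlin-2, which activates integrins from inside the cell, stood at 9.04 and 9.17 in LNCaP Notch1 and at 7.14 and 7.15 in LNCaP GFP (1.96, adjusted p = 2.70e-06), CD9, a tetraspanin that binds integrins, fell by 0.94 in LNCaP (adjusted p = 0.00232), and CAV1, caveolin-1, rose by 0.68 in PC3 (adjusted p = 0.0290).

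Stromal markers, a check for other cells that make collagen, averaged 6.71 and 6.79 in LNCaP Notch1 and 6.51 and 6.55 in LNCaP GFP, and 5.18 and 5.30 in PC3 Notch1 and 5.45 and 5.37 in PC3 GFP, with 7 of 9 measured markers at log2 5 or above on each LNCaP array and 5 on each PC3 array. ACTA2, smooth muscle actin, moved most of this list with Notch1 in LNCaP, with averages of 9.45 in LNCaP Notch1 and 8.17 in LNCaP GFP, and 4.63 in PC3 Notch1 and 4.87 in PC3 GFP. LUM, which marks fibroblasts, averaged 6.58 in LNCaP Notch1 and 6.39 in LNCaP GFP, and 0.88 in PC3 Notch1 and 0.95 in PC3 GFP, while FAP and POSTN averaged between 1.66 and 2.72 in the 4 groups. The rest of the measured list, THY1, PDGFRB, PDGFRA, DPT and FBLN1, averaged between 6.45 and 9.89 in the 4 groups. Endothelial markers had 1 of 6 at log2 5 or above on every array. As a sign of RNA integrity, ACTB probe sets at the 3' end exceeded those at the 5' end by 0.45 ± 0.10 in LNCaP Notch1 and 0.62 ± 0.06 in LNCaP GFP, and 0.33 ± 0.08 in PC3 Notch1 and 0.38 ± 0.07 in PC3 GFP (SD, n = 2). GAPDH gave 0.38 ± 0.03 in LNCaP Notch1 and 0.56 ± 0.01 in LNCaP GFP, and -0.06 ± 0.03 in PC3 Notch1 and 0.02 ± 0.07 in PC3 GFP. The part of the marker and RNA values in the results was not tested.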

How the data were processed

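Total RNA of LNCaP and PC3 cells was labelled and hybridised to Affymetrix U95Av2 arrays. Per the methods, the authors summarised the raw files with RMA in R and used limma, in versions not given in the sources used here. They deposited 1 log2 value per probe set and array, and no source states whether both lines were normalized together. The log2 values were analysed as deposited. Control probe sets (67 of 12625) were left out. The annotation gave 10943 probe sets 1 symbol, 545 several and 1070 none, and 1 probe set with several symbols that include a member was not used. Genes matched RefSeq by Entrez ID for all 63 members. NOTCH1 and HEY1 were not analysed here.

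A linear model with 4 group means was fitted to all 8 arrays with limma 3.58.1 in R 4.3.3 (4 residual and 6.37 prior degrees of freedom). Tests were two-sided, with moderated standard errors and Benjamini-Hochberg adjustment over 12558 probe sets. The script was tested on simulated data. Precision is limited by there being 2 arrays a group. Each group has a replicate 1 and 2 in its labels. No source says what a number marks. Between groups, same-numbered arrays deviated together (r of 0.124 to 0.545 over all probe sets, 6 group pairs), so a blocked value is printed beside a result whose call it changes. Members, lists and alternatives were chosen with earlier results of these data known. Members were named if called in any comparison, if they partner such a chain, or from a set of basement membrane chains and epithelial integrins, and up to 4 called genes per related list were named. Alternatives were median centring, quantile normalisation, a filter at the 25th percentile of mean level, a floor at log2 5, averaging all probe sets of a gene, only the arrays compared, the block, and leaving out each array. For genes at log2 5 or above on all arrays the floor changed no level. It changed only the moderated spread and the adjustment. Promoter windows were read with Python 3 from RefSeq sequence tables.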

Additional observations from a re-analysis of the deposited data

Results flagged for a closer look

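The effect of activated Notch1 differed between LNCaP and PC3, by limma's test of the LNCaP effect minus the PC3 effect, for 11 members. Under every alternative run, the calls of ITGB4 (1.77, adjusted p = 0.000348), COL5A2 (1.55, adjusted p = 0.00052) and ITGA7 (0.87, adjusted p = 0.00886) held, but the other ITGB4 probe set gave 0.21 (adjusted p = 0.427). COL6A1 (-0.83, adjusted p = 0.00829) lost its call with the mean of its probe sets, and ITGA1 (1.12, adjusted p = 0.0119) without LNCaP Notch1 replicate 2 (1.04, adjusted p = 0.0585).

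ITGA2 (0.90, adjusted p = 0.037) was not called under either scaling or with the log2 5 floor (0.79 to 0.86, adjusted p of 0.0635 to 0.111), nor without PC3 GFP replicate 2 (0.78), PC3 Notch1 replicate 1 (0.94) or 2 (0.86), LNCaP GFP replicate 1 (0.73) or LNCaP Notch1 replicate 2 (0.67), although its other probe set gave 1.16 (adjusted p = 0.00831). COL4A5 (-1.38, adjusted p = 0.0356) was not called without PC3 Notch1 replicate 1 (-1.48) or 2 (-1.29), LNCaP GFP replicate 2 (-1.26), or LNCaP Notch1 replicate 1 (-1.17) or 2 (-1.60). LAMC1 (-0.69, adjusted p = 0.0499) was not called with the floor (adjusted p = 0.143), which changed none of its levels, all above log2 5. LAMC1 was also not called without PC3 GFP replicate 1 (-0.65), PC3 Notch1 replicate 2 (-0.53), LNCaP GFP replicate 2 (-0.55), or LNCaP Notch1 replicate 1 (-0.65) or 2 (-0.73). COL4A2 (-0.59, adjusted p = 0.038) was called without PC3 GFP replicate 1 but not without any other array (-0.64 to -0.51, adjusted p of 0.0635 to 0.113).

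ITGB2 (0.71, adjusted p = 0.0342) and COL3A1 (0.58, adjusted p = 0.0492) lay under log2 5 on all arrays and had no difference with the floor (0.00). Each was called without PC3 GFP replicate 2 but not without any other array (adjusted p of 0.0513 to 0.135 for ITGB2 and 0.0526 to 0.141 for COL3A1).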

How the results depend on the processing

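Of the members called, the calls that held under all alternatives were 4 of 9 in LNCaP (COL4A5, ITGA1, ITGA2 and LAMC1), 2 of 4 in PC3 (COL5A2 and ITGB4), 3 of 11 for the difference of effects, 16 of 39 between the lines with GFP and 18 of 47 with Notch1. No call in the Notch1 comparisons changed sign. With each array left out in turn, the members called higher and lower numbered 2 to 4 and 3 to 5 in LNCaP, 0 to 1 and 2 to 4 in PC3, 3 to 8 and 1 to 4 for the difference, 15 to 21 and 14 to 17 between the lines with GFP, and 28 to 36 and 13 with Notch1. With the replicate block, 4 members were higher and 5 lower in PC3, and 12 higher and 7 lower for the difference (14.3% and 30.2% of members, against 12.7% and 24.1% of all genes). In PC3, 0 members were higher after quantile normalization or with the log2 5 floor, where 295 and 153 of all genes were. For the difference, 4 were higher after median centring, where 384 of all genes were. Between the lines with GFP, 9 were higher after median centring, 9 after quantile normalization, 11 among probe sets above the 25th percentile and 8 with the floor. All genes higher there numbered 2193, 2348, 2538 (of 6547 left by the filter) and 2160, against 3277 as deposited. Between the lines with Notch1 the members higher numbered 17, 13, 22 and 13, and all genes higher 2162, 2562, 3168 and 2541, against 4216 as deposited. In that comparison median centring turned the sign of COL11A2 (-0.0129), COL14A1 (-0.0749), COL2A1 (-0.0147), ITGAV (-0.0260) and ITGAX (-0.0616), and quantile normalization that of COL14A1 (-0.164) and ITGA8 (-0.0512). Of the calls between the lines, the floor ended 16 with GFP and 23 with Notch1, median centring 12 and 12, and quantile normalization 12 and 19. The number of arrays, 2 a group, limits each of these counts.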
